A study of Homo sapiens with 6 samples.

Results

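Of the 63140 genes in the deposited count table, 10 are described here: ZCCHC12, the ID genes ID1, ID2, ID3 and ID4, the inhibitory SMADs SMAD6 and SMAD7, the pseudoreceptor BAMBI, and the receptor-activated SMADs SMAD1 and SMAD5. Each was found by its symbol, and each symbol occurred once. ZCCHC12 was chosen by its higher counts with GSK-A1 in these same libraries, and the other 9 were listed by name with the results of that comparison known, so their differences between the groups are a description and carry no test. The libraries came from HEK293, an established human cell line of embryonic kidney origin grown in serum. Confluent HEK293 cells received 100 nM GSK-A1 for 24 h (3 libraries), and the control cells received DMSO, the solvent (3 libraries). GSK-A1 inhibits phosphatidylinositol 4-kinase alpha (PI4KA), which supplies phosphatidylinositol 4-phosphate at the plasma membrane. No BMP ligand or BMP inhibitor is named in the labels, and no allele or transgene. The labels call the libraries biological replicates and say nothing more on how the cultures were separated, so the spread given here is that between these libraries.

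Bone morphogenetic proteins (BMPs) are secreted ligands that bind type I and type II receptor kinases. The receptors phosphorylate SMAD1, SMAD5 and SMAD9, which join SMAD4, enter the nucleus and switch on target genes. ID1 to ID4, among the best known of these targets, encode helix-loop-helix proteins that lack a DNA-binding region and hold E proteins away from DNA. SMAD6, SMAD7 and BAMBI are induced by the pathway and dampen it: the inhibitory SMADs act at the receptors and on SMAD complexes, and BAMBI is a receptor-like protein without a kinase. ZCCHC12, also called SIZN1, is a zinc-knuckle protein of the PNMA family described as a coactivator of BMP-SMAD transcription that works with CREB-binding protein. ID genes and inhibitory SMADs also respond to signals other than BMP.

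Promoter windows from RefSeq (build GRCh38.p14, 250 bases before to 50 after a start site, 5' to 3' on the gene's strand) were found for all 10 genes, 16 windows in total. The windows of 4 genes are printed because they stand for the gene that differed most (ZCCHC12), genes that differed little (ID3, BAMBI) and the gene whose groups overlapped (SMAD6): ZCCHC12 (chrX:118823574-118823873, plus strand), ID3 (chr1:23559452-23559751, minus strand), SMAD6 (chr15:66701986-66702285, plus strand) and BAMBI (chr10:28677271-28677570, plus strand). Capitals mark matches, on either strand and allowed to overlap, to the SMAD palindrome GTCTAGAC, the CAGA box CAGAC, the GC-rich BMP element GGCGCC, the core TGACG of the CREB site, the EGR element GCGNGGGCG and the CArG box.
ZCCHC12: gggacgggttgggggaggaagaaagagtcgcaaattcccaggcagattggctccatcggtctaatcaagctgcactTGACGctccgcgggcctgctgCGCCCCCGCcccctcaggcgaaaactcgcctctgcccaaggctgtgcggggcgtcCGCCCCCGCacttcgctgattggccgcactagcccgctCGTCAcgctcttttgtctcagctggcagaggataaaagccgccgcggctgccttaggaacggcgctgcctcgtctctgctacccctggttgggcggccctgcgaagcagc
ID3: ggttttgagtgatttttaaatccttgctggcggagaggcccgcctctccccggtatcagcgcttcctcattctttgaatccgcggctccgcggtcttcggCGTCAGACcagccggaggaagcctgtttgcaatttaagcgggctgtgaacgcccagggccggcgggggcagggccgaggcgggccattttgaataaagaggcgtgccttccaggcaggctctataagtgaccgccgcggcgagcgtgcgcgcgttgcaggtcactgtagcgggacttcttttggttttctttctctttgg
SMAD6: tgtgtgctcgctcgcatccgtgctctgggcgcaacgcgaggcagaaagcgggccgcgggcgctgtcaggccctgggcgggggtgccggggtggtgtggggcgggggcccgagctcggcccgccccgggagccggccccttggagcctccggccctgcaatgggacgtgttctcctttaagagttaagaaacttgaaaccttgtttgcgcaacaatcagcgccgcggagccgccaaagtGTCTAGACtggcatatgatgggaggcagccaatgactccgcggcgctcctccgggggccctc
BAMBI: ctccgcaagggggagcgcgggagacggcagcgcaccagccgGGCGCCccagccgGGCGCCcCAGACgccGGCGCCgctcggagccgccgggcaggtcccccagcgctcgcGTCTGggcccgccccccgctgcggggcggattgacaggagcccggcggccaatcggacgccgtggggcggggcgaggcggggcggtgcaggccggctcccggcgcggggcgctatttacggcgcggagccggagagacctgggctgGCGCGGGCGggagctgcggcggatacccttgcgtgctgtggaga
The SMAD palindrome occurred in the SMAD6 window, beginning 12 bases before the start site, and in 0.202% of the 35116 windows of all genes. BAMBI held GGCGCC at 209, 196 and 181 bases before its start site, letters that 19.2% of all windows held. SMAD1 and SMAD5 held them too, and with BAMBI this made 4 of the 16 windows. The ID1 window held none of the motifs. ZCCHC12 held no SMAD palindrome, CAGA box or GGCGCC, but TGACG began at 174 and, on the other strand, at 60 bases before its start site, and the EGR element on the other strand at 153 and 98. TGACG was found in 24.6% of all windows and the EGR element in 9.43%. Neither was particular to ZCCHC12. Of the 16 windows, 4 held the EGR element (ZCCHC12, ID2, ID4 and BAMBI) and 3 held TGACG (ZCCHC12, ID3 and SMAD1). In ID3 the CAGA box, a letter run found in 45.3% of all windows, overlapped a TGACG match on the other strand. No window of the 10 genes held a CArG box, which 1.29% of all windows held. A match here is a run of letters, not a measured binding site. The windows reach only 250 bases before a start site. A window without a match therefore says nothing of elements farther away.

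Library totals ranged from 33040178 to 47777233 counts, and every one of the 10 genes had between 345 and 9442 counts in each library, so that sampling of reads alone gives an error of at most 5.38% (ID1 in DMSO replicate 3). All libraries carried the same batch label. Levels are given as CPM, each gene's count as a rate of the library's total after scaling by library factors of the trimmed mean of M values (TMM). CPM are relative to all RNA in a library, so a gene's change in each cell cannot be told apart from a change in the make-up of the culture. GSK-A1 replicate 2 stood apart: it differed from the other GSK-A1 libraries by a root mean square of 0.30 and 0.33 in log2 CPM over 16754 genes, against 0.23 for GSK-A1 replicates 1 and 3 and 0.22 to 0.24 for DMSO pairs. Of 8 HEK293 markers, 7 passed the count filter, led by VIM (1085 ± 33 CPM with DMSO; SD, n = 3) and NEFL (715 ± 2.4 CPM), while NEFM stood at 0.142 CPM. The 8 summed to 2130 to 2206 CPM with DMSO and 2277 to 2475 CPM with GSK-A1. VIM and KRT8 were called higher (log2 fold change 0.17 and 0.11, edgeR adjusted p = 0.00423 and 0.0373), and PAX2 was called lower (-0.43 ± 0.12, edgeR adjusted p = 0.0177), at 2.71 ± 0.083 CPM with DMSO and 2.00 ± 0.057 CPM with GSK-A1. The 12 markers of other cell types summed to 8.76 to 9.11 CPM with DMSO and 6.44 to 8.68 CPM with GSK-A1, of which COL1A1 gave the largest part (6.81 ± 0.40 CPM with DMSO). CD3E had no count in the DMSO libraries and 1 count in GSK-A1 replicate 1. Of the 3 of these markers that were tested, CDH1 was called lower, at 0.821 ± 0.11 and 0.508 ± 0.065 CPM (-0.71 ± 0.23, edgeR adjusted p = 0.0317). The part of these marker differences in the results was not tested.

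ZCCHC12 (ENSG00000174460, chrX:118823790-118826968, plus strand) moved most of the 10. Its level was 80.1, 80.1 and 82.1 CPM in DMSO replicates 1 to 3 and 203, 197 and 195 CPM in GSK-A1 replicates 1 to 3. Every GSK-A1 library lay far above every DMSO library, with little spread in either group. The log2 fold change was 1.30 ± 0.04 (SE), a 2.46-fold higher level, and 0.328% of the 16754 tested genes had a larger change in either direction. It lay between 1.26 and 1.31 under all alternatives run, and GSK-A1 replicate 2 left out gave 1.31. Only 0.917% of the 50-base stretches of its transcript occurred in another gene, the paralog ZCCHC18, which stood at 1.89 ± 0.19 CPM with DMSO and 1.76 ± 0.34 CPM with GSK-A1 (SD, n = 3).

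**Figure D1:**
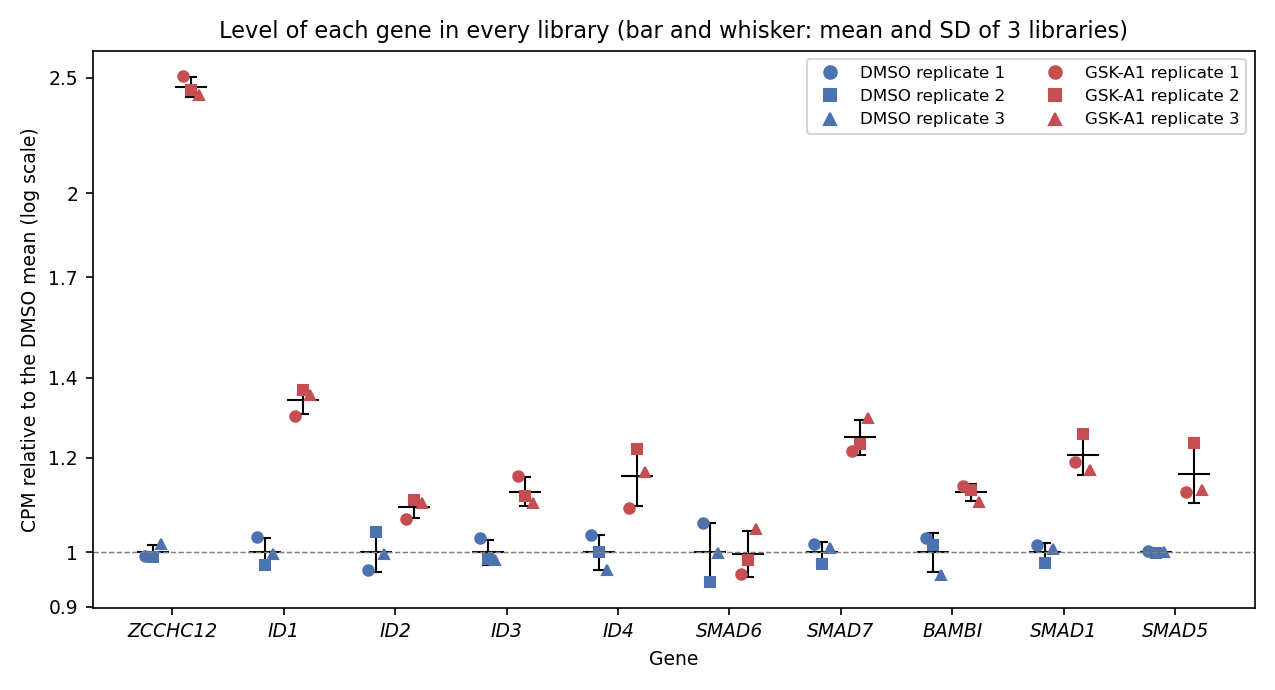
CPM of each gene in each library divided by the mean of its 3 DMSO libraries (log axis), with DMSO in blue, GSK-A1 in red, and bars and whiskers for mean and SD. ZCCHC12 stands at 2.46-fold, the other genes lie at 1.34-fold (ID1) or below, and SMAD6 is the gene whose groups overlap.

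All 4 ID genes were higher with GSK-A1, ID1 by most. The DMSO replicates of ID1 (ENSG00000125968, chr20:31605283-31606515) gave 10.8, 10.2 and 10.4 CPM, and its GSK-A1 replicates gave 13.6, 14.3 and 14.2 CPM. Its groups were clearly separate, and its log2 fold change was 0.42 ± 0.06 (SE). ID4 (ENSG00000172201, chr6:19837386-19840684) stood at 48.9, 47.3 and 45.6 CPM with DMSO and at 51.4, 57.7 and 55.2 CPM with GSK-A1. GSK-A1 replicate 2 was the highest library for ID4, and the log2 fold change of 0.21 ± 0.05 (SE) was 0.17 without it.

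ID3 (ENSG00000117318, chr1:23557918-23559794) stood at 119, 114 and 114 CPM with DMSO and at 134, 129 and 127 CPM with GSK-A1. This is a log2 fold change of 0.17 ± 0.04 (SE). ID2 (ENSG00000115738, chr2:8678845-8684453) stood at 106, 114 and 110 CPM with DMSO and at 117, 122 and 121 CPM with GSK-A1. For ID2 the gap between the groups was narrow, 114 CPM in the highest DMSO library against 117 in the lowest GSK-A1 library, and the log2 fold change was 0.12 ± 0.04 (SE). The groups did not overlap in either gene, which also held for 40.5% of all tested genes in either direction (20.2% higher).

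Summed over the 4 genes, ID transcripts made up 283 ± 3.4 CPM with DMSO and 319 ± 3.3 CPM with GSK-A1 (SD, n = 3). ID1 differed by more than the rest, which shows in the make-up of the family. By reads per kilobase of exonic length, ID1 gave 5.94% ± 0.16 of the family with DMSO and 7.04% ± 0.16 with GSK-A1, with no overlap between the libraries. ID3 remained the largest part at 45.0% ± 0.91 and 44.8% ± 1.4, ID2 gave 34.9% ± 1.3 and 33.7% ± 0.55, and ID4 gave 14.1% ± 0.35 and 14.5% ± 0.74 (SD, n = 3). The shares of ID2, ID3 and ID4 overlapped between the groups.

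**Figure D2:**
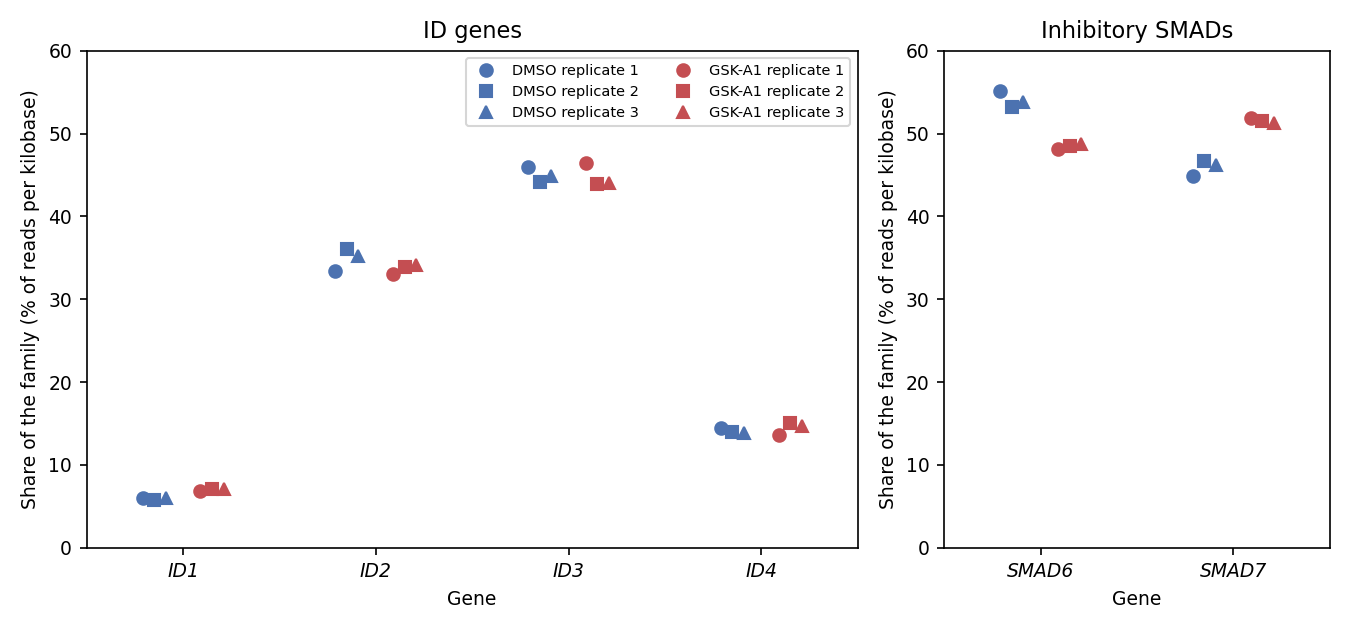
Share of each gene in the reads per kilobase of its family in every library, for the 4 ID genes (left) and the inhibitory SMADs (right), with DMSO in blue and GSK-A1 in red. By exonic length, the share of ID1 goes from 5.94% to 7.04%, and SMAD7 goes from 45.9% to 51.5% of the inhibitory SMAD pair. By the longest transcript SMAD6 stays above SMAD7 in both groups.

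The inhibitory SMADs parted from each other. SMAD7 (ENSG00000101665, chr18:48919853-48952052), which blocks both the BMP and the TGF-beta receptors, stood at 13.4, 12.9 and 13.3 CPM with DMSO and at 16.0, 16.3 and 17.1 CPM with GSK-A1, which is 0.32 ± 0.06 (SE) higher on the log2 scale. SMAD6 (ENSG00000137834, chr15:66702228-66782848), which acts mainly on the BMP arm, stood at 28.0, 25.0 and 26.4 CPM with DMSO and at 25.4, 26.1 and 27.7 CPM with GSK-A1. The SMAD6 groups overlapped throughout. Its log2 fold change was -0.01 ± 0.06 (SE), with a sign that depended on the setting: it ranged from -0.05 to 0.04, at 0.0016 without GSK-A1 replicate 2. The ratio of SMAD6 to SMAD7 reads per kilobase was 1.23, 1.14 and 1.17 in the DMSO replicates and 0.930, 0.943 and 0.951 in the GSK-A1 replicates, so every GSK-A1 library had less SMAD6 per SMAD7 than any DMSO library. Which gene stands higher with GSK-A1 depends on the length used. Per kilobase of the longest transcript it was SMAD6 (5.07 against 3.72 CPM per kilobase).

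BAMBI (ENSG00000095739, chr10:28677342-28682939) stood at 23.2, 22.9 and 21.6 CPM with DMSO and at 25.7, 25.5 and 24.9 CPM with GSK-A1. The groups did not overlap, as in 20.2% of tested genes in that direction, and the log2 fold change was 0.16 ± 0.05 (SE). In relative terms this was a 12.0% higher level, close to that of ID3 (12.4%) and below that of SMAD7 (24.7%).

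The receptor-activated SMADs were both higher. SMAD5 (ENSG00000113658, chr5:136132845-136188747) stood at 132.0, 131.7 and 131.8 CPM with DMSO, the smallest spread of the 10 genes (0.122% of the mean), and at 148, 163 and 149 CPM with GSK-A1. That DMSO spread is below the 1.51% that sampling of reads alone gives at the lowest count of SMAD5. No special steadiness is read from it. GSK-A1 replicate 2 was the highest library for SMAD5, and the log2 fold change was 0.22 ± 0.04 (SE) with it and 0.18 without it. SMAD1 (ENSG00000170365, chr4:145481194-145558079) stood at 23.2, 22.4 and 23.1 CPM with DMSO and at 27.2, 28.8 and 26.8 CPM with GSK-A1. Its log2 fold change was 0.27 ± 0.05 (SE) with GSK-A1 replicate 2 and 0.24 without it. The ratio of SMAD5 to SMAD1 reads per kilobase of exonic length averaged 3.86 ± 0.068 over the DMSO libraries (SD, n = 3). Over the GSK-A1 libraries it averaged 3.72 ± 0.074. Its size depends on the length used. Per kilobase of the longest transcript, SMAD5 and SMAD1 stood at 18.8 and 6.95 CPM with DMSO and at 21.9 and 8.38 CPM with GSK-A1. Antisense genes covered 6.75% of the exonic length of SMAD5 and 6.21% of that of SMAD1. They were nearly silent: SMAD5-AS1 had 12 to 21 counts in a library and SMAD1-AS1 at most 1.

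All 10 genes passed the filter on low counts. The fit across all genes (edgeR quasi-likelihood, Benjamini-Hochberg adjusted p under 0.05) called 9 of the 10 higher and 0 lower, 0 also at an unadjusted p under 0.05, with DESeq2 and with limma-voom. Over all 16754 tested genes, 12.0% were called higher and 10.9% lower. Since the genes were chosen with this comparison known, nothing is read from that count. The groups did not overlap in the same 9 genes, against 40.5% of tested genes in either direction (20.2% higher, 20.4% lower). SMAD6 was the exception in both counts. The number called higher was 6 without DMSO replicate 3, when ID2, ID4 and BAMBI dropped out. It was 7 without DMSO replicate 1 and 7 under upper-quartile factors, where ID2 and BAMBI dropped out. It was 8 with DESeq2, without DMSO replicate 2 and with the first GSK-A1 library left out, each time for the loss of BAMBI, and 8 with the third GSK-A1 library left out, for the loss of ID2. With limma-voom it was 9. The median log2 fold change was 0.21 over the 10 genes and 0.21 over the 9 genes other than ZCCHC12, against -0.01 over all tested genes. ZCCHC12 stood at 1.30 on that scale, the 8 others called at 0.12 to 0.42, and SMAD6 at -0.01.

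Levels can be compared between genes only per length, here as TPM, reads per kilobase scaled to the same total in every library, computed from the exonic length in GENCODE release 29. With DMSO the order was ID3 (228 ± 6.9 TPM), ID2 (177 ± 5.3), ZCCHC12 (128 ± 2.2), ID4 (71.5 ± 2.7), SMAD5 (51.7 ± 0.42), BAMBI (34.6 ± 1.3), ID1 (30.1 ± 1.0), SMAD1 (13.4 ± 0.34), SMAD6 (10.95 ± 0.70) and SMAD7 (9.29 ± 0.25; SD, n = 3). No neighbours in that order overlapped between libraries. With GSK-A1, ZCCHC12 came first at 318 ± 12 TPM, above ID3 at 258 ± 11, while ID1 (40.7 ± 2.1) overlapped BAMBI (39.1 ± 1.7) and SMAD7 (11.7 ± 0.37) overlapped SMAD6 (10.5 to 11.3 TPM). These changes of place depend on the length used. Per kilobase of the longest transcript, ZCCHC12 was at rank 3 with DMSO and rank 2 with GSK-A1, behind ID3 (88.9 against 104 CPM per kilobase), and BAMBI stayed above ID1 and SMAD6 above SMAD7 in both groups. In the DMSO libraries ID3, ID2 and ZCCHC12 lay at the 96.8th, 95.7th and 93.4th percentile of tested genes by TPM, and SMAD7, the lowest, at the 41.4th.

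**Figure D3:**
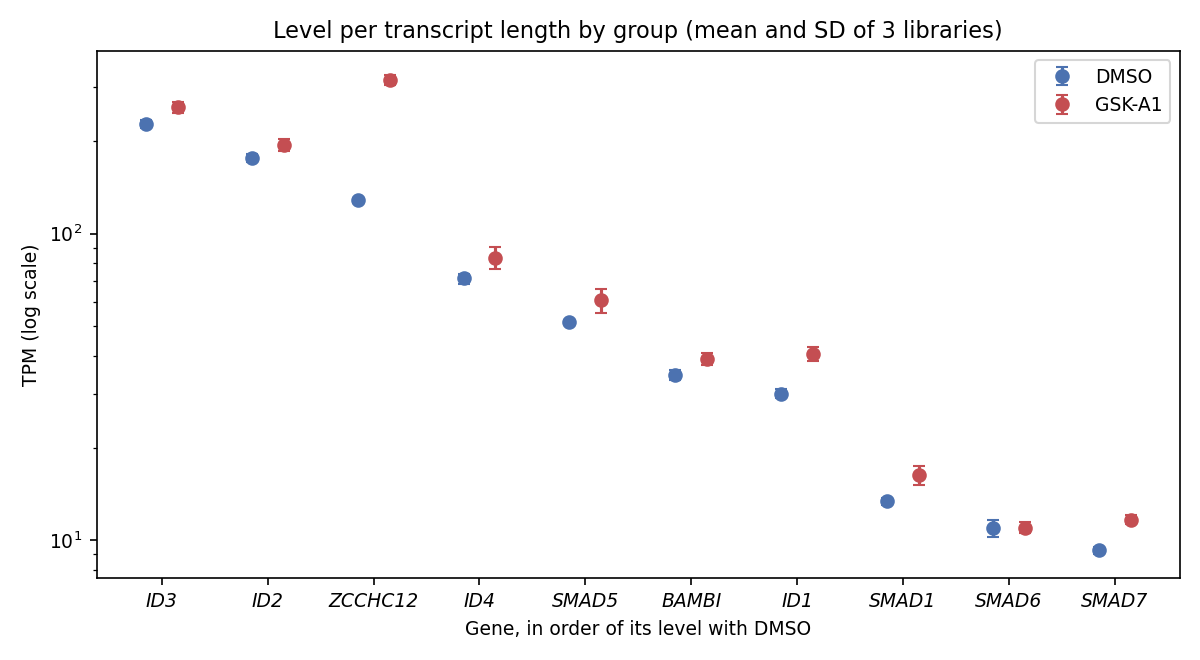
TPM of the 10 genes (log axis; mean and SD of 3 libraries) in the order of their level with DMSO, with DMSO in blue and GSK-A1 in red. By exonic length, ZCCHC12 goes from 128 to 318 TPM and passes ID2 and ID3, and ID1 and SMAD7 come just above BAMBI and SMAD6, with overlapping libraries. By the longest transcript ZCCHC12 stays below ID3, ID1 below BAMBI and SMAD7 below SMAD6.

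The rest of the pathway was read in 9 lists by role, 122 genes of which 96 passed the count filter. Of these 96 genes, 27 were called higher and 9 lower (28.1% and 9.38%, against 12.0% and 10.9% of all tested genes). The median log2 fold change of the 96 was 0.07, against -0.01 over all tested genes. These lists, too, were chosen with earlier results of these data known, so nothing is read from their counts. The lower count varied with the libraries and the tool: it was 3 with DESeq2 and 5 with RLE factors on all 6 libraries. With 5 libraries it was 2 without DMSO replicate 2 or 3 and 3 without the first library of either group. It was 5 without the third GSK-A1 library and 10 without GSK-A1 replicate 2. Calls over all genes also varied, from 2163 to 4890 with 1 library left out against 3835 with all. The higher count was 18 without any single DMSO replicate. Under upper-quartile factors the split was 19 higher and 15 lower, and over all genes the share of calls that were higher went from 52.3% to 33.3%.

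Among the BMP ligands, 3 of 9 tested genes were called higher and 0 lower (2 lower at an unadjusted p under 0.05, 0 with DESeq2 and with limma-voom), and the list's median was 0.07 on the log2 scale. BMP6 stood at 29.9 ± 1.0 CPM with DMSO and 39.4 ± 2.6 CPM with GSK-A1 (SD, n = 3), 0.40 ± 0.05 higher on the log2 scale (SE; edgeR adjusted p = 1.04e-04). BMP2 went from 17.1 ± 0.59 to 22.7 ± 1.8 CPM (0.40 ± 0.06, edgeR adjusted p = 3.29e-04). BMP8B changed by 0.17 ± 0.06 (edgeR adjusted p = 0.0466), a call lost in 11 of 14 alternative fits, and 13.4% of its 50-base stretches occurred in other genes, mainly its paralog BMP8A. BMP7, a ligand whose groups overlapped, stood at 60.3 ± 2.5 and 63.1 ± 1.8 CPM (0.07 ± 0.04, edgeR adjusted p = 0.307). Of the 9 tested ligands, 5 had a positive log2 fold change. GDF5, at 0.468 ± 0.026 CPM with DMSO, changed by -0.68 ± 0.29 and was not called (edgeR adjusted p = 0.100). Also negative and not called were GDF7 (-0.14 ± 0.05), BMP4 (-0.11 ± 0.09) and GDF6 (-0.09 ± 0.17).

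Of the receptors and co-receptors, 4 of 9 tested genes were called higher and 1 lower. ACVR1, a type I receptor for BMPs, went from 16.7 ± 1.0 to 20.6 ± 1.4 CPM (SD, n = 3; log2 fold change 0.30 ± 0.07, SE, edgeR adjusted p = 0.00350). The type II receptors ACVR2B (0.19 ± 0.04, edgeR adjusted p = 0.00363) and BMPR2 (0.16 ± 0.04, edgeR adjusted p = 0.00770) also rose. The other called genes were the co-receptor RGMB (0.12 ± 0.04, edgeR adjusted p = 0.0474) and, lower, the type I receptor ACVRL1 (-0.30 ± 0.10, edgeR adjusted p = 0.0388). With DESeq2, and in edgeR without GSK-A1 replicate 2, 4 receptors were called higher and 0 lower, so the call of ACVRL1 was lost in both. The number called fell from 5 to 3 when any single DMSO library, or the third GSK-A1 library, was dropped. Of 10 tested secreted antagonists, 1 was called higher and 0 lower (1 lower at an unadjusted p under 0.05, 0 with DESeq2 and with limma-voom). The called gene was NOG, which encodes noggin and had 4.21 ± 0.40 CPM in the DMSO libraries and 5.45 ± 0.54 CPM in the GSK-A1 libraries (0.35 ± 0.11, edgeR adjusted p = 0.0257). Its call was lost with DESeq2, and in edgeR once DMSO replicate 2 or 3, or the third GSK-A1 library, was left out, where the edgeR adjusted p was up to 0.109.

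The remaining SMADs followed SMAD1 and SMAD5 in direction. SMAD9, a receptor-activated SMAD of the BMP arm, went from 44.6 ± 0.68 to 52.2 ± 2.6 CPM (SD, n = 3; log2 fold change 0.23 ± 0.05, SE, edgeR adjusted p = 0.00264). The common partner SMAD4 changed by 0.16 ± 0.04 (edgeR adjusted p = 0.0110) and SMAD3, of the TGF-beta arm, by 0.19 ± 0.04 (edgeR adjusted p = 0.00456). SMAD2 stood at 55.7 ± 0.43 and 59.5 ± 2.5 CPM (0.10 ± 0.04, edgeR adjusted p = 0.125). The SMAD4 call was lost without DMSO replicate 1 (edgeR adjusted p = 0.0708) or 2 (0.0514), and 8.26% of its 50-base stretches occurred in an overlapping gene on the same strand.

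Regulators and cofactors of SMADs held 9 genes called higher and 2 lower of 23. PMEPA1, a feedback inhibitor of TGF-beta signalling, went from 10.3 ± 0.53 to 16.1 ± 0.12 CPM (SD, n = 3; log2 fold change 0.64 ± 0.06, SE, edgeR adjusted p = 4.75e-06). NEDD4L, a ubiquitin ligase for activated SMADs, rose by 0.37 ± 0.04 (edgeR adjusted p = 2.41e-05) and SKIL, a SMAD corepressor, by 0.28 ± 0.05 (edgeR adjusted p = 6.16e-04). The genes called lower were the phosphatase gene CTDSP1 (-0.13 ± 0.04, edgeR adjusted p = 0.0495) and the ubiquitin ligase gene STUB1 (-0.10 ± 0.03, edgeR adjusted p = 0.0383). With DESeq2, 9 were called higher and 0 lower, so both lower calls were lost, and with limma-voom 9 were called higher and 1 lower. Antisense genes covered 6.10% of the exons of PMEPA1 and 5.41% of those of NEDD4L. The 11 calls became 5 without DMSO replicate 2 or 3, 6 without DMSO replicate 1 and 7 when the first GSK-A1 library was dropped.

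Target genes of BMP other than the ID genes were mixed, with 4 of 15 tested genes called higher and 2 lower. HEY1, a transcriptional repressor, went from 72.1 ± 0.94 to 85.4 ± 3.2 CPM (SD, n = 3; log2 fold change 0.25 ± 0.04, SE, edgeR adjusted p = 5.53e-04), and SNAI2 from 3.72 ± 0.10 to 5.18 ± 0.36 CPM (0.47 ± 0.10, edgeR adjusted p = 0.00273). DLX3 went the other way, from 3.00 ± 0.17 to 2.06 ± 0.36 CPM (-0.54 ± 0.14, edgeR adjusted p = 0.00997). HEY2 and MSX2 were the other genes called higher (0.32 ± 0.08 and 0.15 ± 0.05, edgeR adjusted p = 0.0101 and 0.0426), and GATA3 was the other called lower (-0.26 ± 0.09, edgeR adjusted p = 0.0477). With DESeq2, 3 were called higher and 1 lower, and with limma-voom 4 higher and 1 lower. The 6 calls became 2 without DMSO replicate 1, when that of DLX3 was lost (edgeR adjusted p = 0.0602).

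**Figure D4:**
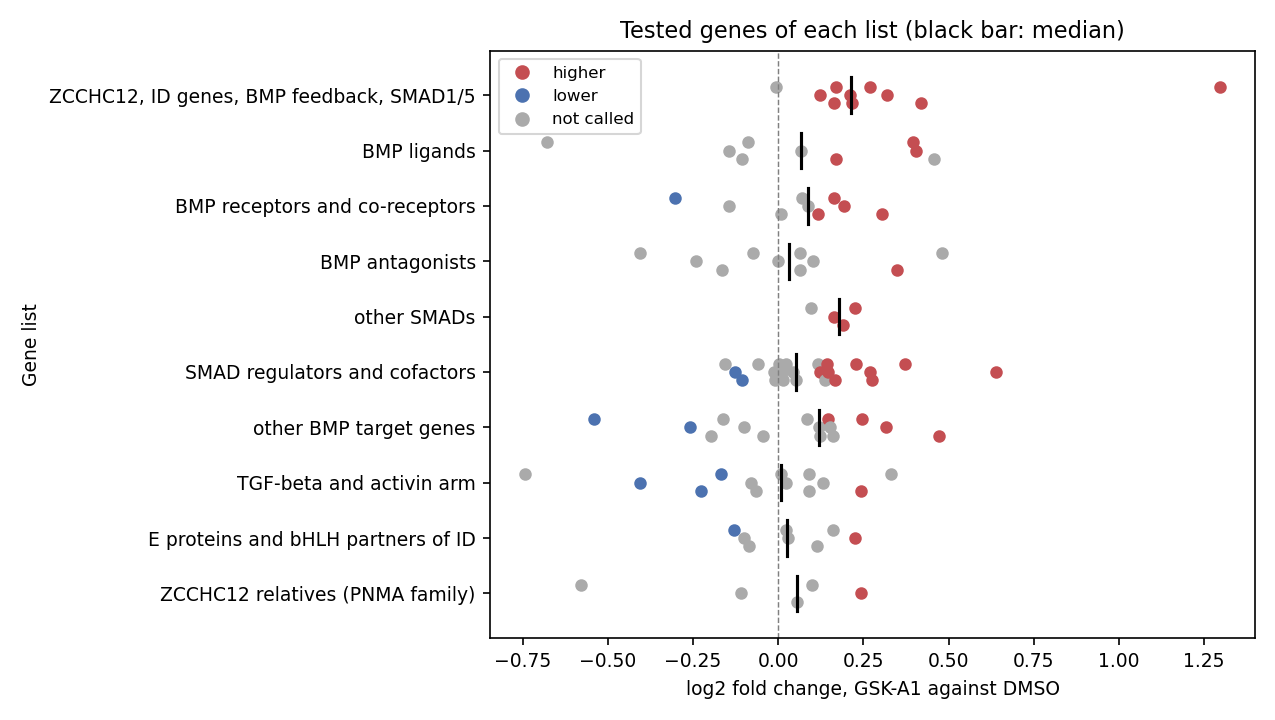
Log2 fold change of every tested gene in the 10 described genes (top) and in the 9 pathway lists, with called genes in red (higher) or blue (lower), genes not called in grey, and the median of each list as a black bar. The medians are 0.21 for the 10 genes, 0.18 for the other SMADs, 0.12 for the other BMP targets and 0.01 for the TGF-beta and activin arm. In between lie BMP receptors and co-receptors (0.09), BMP ligands (0.07), the PNMA family (0.05) and SMAD regulators and cofactors (0.05). BMP antagonists and the partners of ID both stand at 0.03.

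The TGF-beta and activin arm had 1 of 13 tested genes called higher and 3 lower, and its median was 0.01 on the log2 scale. The receptor TGFBR2 rose by 0.24 ± 0.06 (SE, edgeR adjusted p = 0.00475), while the ligand GDF11 changed by -0.17 ± 0.04 (edgeR adjusted p = 0.00973) and LTBP3, a latency-binding protein, by -0.23 ± 0.06 (edgeR adjusted p = 0.0112). INHBB, an activin subunit, was the other gene called lower (-0.41 ± 0.13, edgeR adjusted p = 0.0319). With DESeq2, 1 was called higher and 2 lower. Calls of GDF11 and LTBP3 were lost in 2 and 3 of the fits without 1 library. SARNP shared 3.86% of the 50-base stretches of GDF11. Without GSK-A1 replicate 1 the 4 calls became 1, and without DMSO replicate 2 or 3 there were 2. Whether this arm differed from the BMP lists was not tested.

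Of the helix-loop-helix partners of ID proteins, 8 were tested, 1 was called higher and 1 lower. TWIST1 changed by 0.23 ± 0.07 (SE, edgeR adjusted p = 0.0226) and the E protein TCF4 by -0.13 ± 0.04 (edgeR adjusted p = 0.0381). TWIST1 lost its call in 4 alternative fits and TCF4 in 8, and neither was called once DMSO replicate 1 or 3, or the third GSK-A1 library, was left out. An antisense gene covered 6.94% of the exons of TWIST1. The other E proteins, TCF3 at 260 ± 10 and 243 ± 8.9 CPM and TCF12 at 63.6 ± 0.23 and 64.7 ± 2.7 CPM (SD, n = 3), were not called. In the PNMA family, to which ZCCHC12 belongs, 1 of 5 tested relatives was called higher and 0 lower (1 lower at an unadjusted p under 0.05, 0 with DESeq2 and with limma-voom). The called gene was PNMA2, which went from 107 ± 2.5 to 126 ± 3.1 CPM, or 0.24 ± 0.04 on the log2 scale (edgeR adjusted p = 3.43e-04). Of its exons, 7.19% overlapped the antisense genes BNIP3L and DPYSL2. Other genes, mainly BNIP3L (5.74%), held 8.1% of its 50-base stretches. The closest paralog, ZCCHC18, differed by -0.11 ± 0.16 on the log2 scale (edgeR adjusted p = 0.663), and the sign turned (0.01) without GSK-A1 replicate 2.

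Over the 6 libraries, the profile of ZCCHC12 was compared with those of 12806 other genes with a symbol and a mean of at least 1 CPM, by the root mean square distance between centred log2 CPM. The nearest genes were SCARA5 (0.07), LAMB3 (0.08), ANXA1 (0.08), SH2D3C (0.11) and SPRY4 (0.12). Like ZCCHC12 they were higher in every GSK-A1 library, with log2 fold changes from 1.13 (SPRY4) to 1.35 (SH2D3C). This likeness follows from choosing them by that profile. Their levels were lower than that of ZCCHC12, from 2.38 CPM (SH2D3C) to 16.5 CPM (ANXA1) in the DMSO mean. Of the described genes, ID1 was nearest to ZCCHC12 at 0.44 and SMAD6 farthest at 0.65. This order repeats that of their log2 fold changes and shows no further likeness. With Pearson correlation in place of the distance, 0 of the 5 genes were among the 5 nearest, so the names depend on the measure.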

How the data were processed

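The authors deposited raw counts per gene for 6 libraries, without normalization, with 1 column per library named in the labels. Per the submitters' processing notes, cutadapt 5.1, STAR 2.7.11b, featureCounts (Subread 2.1.1), DESeq2 1.38.0 and genome build GRCh38.p13 were used, with no settings; the annotation release and strand setting are not given in the sources used here. Per the labels' protocols, libraries were made with a stranded kit from total RNA. Counts were tested with edgeR 4.0.16 in R 4.3.3: filterByExpr (smallest count 10, smallest total 15) left 16754 genes, TMM factors, robust quasi-likelihood fit without the legacy option, Benjamini-Hochberg adjustment over all genes, called at an adjusted p under 0.05. SE is the unshrunken log2 coefficient divided by the root of its F statistic. The code was tested on simulated counts. Profiles used log2 CPM with a prior count of 2. GENCODE release 29 (58126 identifiers matched) gave lengths, positions (GRCh38) and 50-base matches. Counting errors cover sampling of reads only.

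The described genes and the gene lists were chosen with earlier results of these data known. Named besides them are up to 3 called genes per list with the smallest p-values, every other SMAD, ZCCHC18, and the 5 genes nearest to ZCCHC12. BMP4, BMP7, GDF5, GDF6, GDF7, RGMB, ACVRL1, CTDSP1, STUB1, HEY2, MSX2, GATA3, INHBB, TCF3, TCF12 and the single markers were named after their values were seen. Alternatives were RLE, upper-quartile and no library factors, no count filter, at least 1 CPM in 3 libraries, DESeq2 1.42.0, limma-voom (limma 3.58.1), a replicate block, an adjusted p under 0.01, and 6 fits that each left out 1 library. The length of the longest transcript was added after the data were seen.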

Additional observations from a re-analysis of the deposited data

How the results depend on the processing

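None of the 10 described genes changed sign in any alternative other than SMAD6, which was not called. The number of all genes called, 3835, was 1871 at an adjusted p under 0.01 and 2163 to 4890 with 1 library left out. Described genes called higher numbered 6 to 9 with 1 library left out. Pathway genes called higher, 27, were 16 at an adjusted p under 0.01 and 18 to 29 with 1 library left out. Those called lower, 9, were 5 with RLE factors, 15 with upper-quartile factors, 3 with DESeq2, 2 at an adjusted p under 0.01, and 2 to 10 with 1 library left out. Under upper-quartile factors the median log2 fold change was -0.0084 for BMP antagonists, 0.14 for the other SMADs, 0.010 for SMAD regulators and cofactors and -0.033 for the TGF-beta and activin arm. With 1 library left out the medians ranged from 0.044 to 0.077 for SMAD regulators and cofactors, from 0.063 to 0.13 for the other BMP targets and from -0.042 to 0.044 for the TGF-beta and activin arm. The log2 fold change of ZCCHC18 ranged from -0.22 to 0.014 with 1 library left out, and turned in sign (0.014) without GSK-A1 replicate 2. The cause of these shifts was not tested.

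The labels give same-numbered libraries no link beyond the number. Their deviations from the group means correlated at 0.011, 0.019 and 0.032, and those of differently numbered libraries at -0.033 to 0.012. Each DMSO library correlated best with the GSK-A1 library of its own number, while GSK-A1 replicate 1 correlated best with DMSO replicate 2 (0.012). Whether the libraries were paired was not tested. With the replicate block 4127 genes were called, against 3835 without it. It called 9 described genes higher, and 26 pathway genes higher and 10 lower.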
